A study of Mus musculus with 12 samples.

Results

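Liver RNA libraries of 12 mice were divided by whether they held the full-length coding transcript of Lpcat3, and 5 libraries without it (deleted) were compared with 7 libraries that held it (intact). Lpcat3 encodes lysophosphatidylcholine acyltransferase 3, an enzyme of the endoplasmic reticulum that places polyunsaturated acyl chains into lysophospholipids and so sets how fluid hepatocyte membranes are. It is a target of the liver X receptors (LXR) and is known in liver for its part in lipoprotein lipidation and in control of lipogenesis. A library was called deleted where the coding transcript was listed at 0 FPKM (fragments per kilobase of transcript, scaled to depth) and intact where it was over 5 FPKM, and no library lay between.

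The mice were C57BL/6, 6 to 8 weeks old and labelled male, and they were fasted for 12 h before the livers were taken. Their sex-linked transcripts, given below, went against the label male. All mice carried homozygous loxP-flanked Lpcat3 (flox) alleles, and the cre mice carried a cre transgene as well. The promoter that drives it is not named in the labels, which call these mice LKO. Each genotype ate a methionine- and choline-deficient diet for 8 weeks (MCD, a model of steatohepatitis) or a control diet (NC), with 3 mice in each of the 4 groups. The deleted class held cre MCD 1 and 2 and cre NC 1, 2 and 3. The intact class held flox MCD 1, 2 and 3, flox NC 1, 2 and 3, and 1 library labelled as cre on MCD. The transcript of that last library went against its label, and it is called the library labelled cre MCD 3. By diet this gave 2 deleted against 4 intact libraries on MCD, and 3 against 3 on NC.

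The values that chose the classes are given as a description and were not tested. The coding transcript (ENSMUST00000004381, 13 exons, 2281 bases) was listed at 0 FPKM in all 5 deleted libraries. On MCD it stood at 24.1, 17.1 and 22.7 FPKM in the flox libraries and at 23.2 FPKM for the library labelled cre MCD 3. On NC its level was 9.90, 13.9 and 21.7 FPKM in flox 1, 2 and 3, so that the lowest intact value was 9.90 FPKM. A second transcript of the gene (ENSMUST00000135516, 12 exons, 2373 bases), annotated with a retained intron and with no coding sequence, was at 4.81 and 4.19 FPKM in the deleted libraries on MCD and at 4.33, 5.39 and 3.54 FPKM in those on NC. In the intact libraries it reached at most 0.265 FPKM. A shorter transcript with a retained intron (ENSMUST00000150597, 3 exons, 732 bases) was at 3.09 to 6.71 FPKM in deleted and 1.22 to 4.21 FPKM in intact libraries, and so was found in both classes. Another (ENSMUST00000130020, 4 exons, 820 bases) was at 0.341 to 3.64 FPKM in deleted and 0.207 to 0.712 FPKM in intact libraries. The gene as a whole (ENSMUSG00000004270, chromosome 6) kept 16.1 to 23.3 CPM (counts scaled to library size) in the deleted libraries and held 41.4 to 63.4 CPM in the intact ones. In these bulk samples, fewer cells that express a gene and less RNA of it per cell cannot be told apart.

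**Figure D1:**
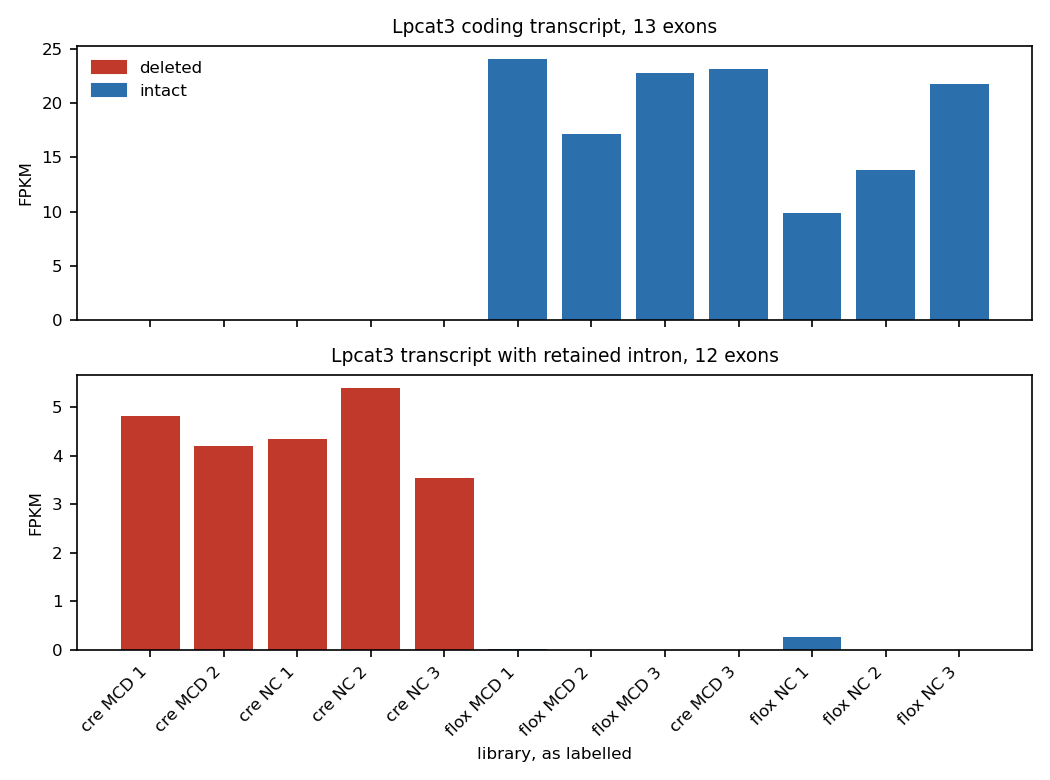
FPKM of the coding Lpcat3 transcript (top) and of the transcript with a retained intron (bottom) in each of the 12 libraries, named as labelled. Red bars are the 5 deleted and blue bars the 7 intact libraries. The coding transcript is at 0 in every deleted library and at 9.90 to 24.1 FPKM in the intact ones, the library labelled cre MCD 3 included.

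The stretch that tells both transcripts apart inside the gene is shown here. The coding transcript, which chose the classes, lacks an intron that the 12-exon transcript keeps in its annotation. The estimated level of the 12-exon transcript was higher in the deleted libraries. The stretch runs from exon 4 to exon 5 of the coding transcript on the plus strand, chr6:124700007-124700278 in GRCm38 (272 bases, read from the GENCODE vM21 transcripts). Capitals mark the 140 bases of intron, 124700101 to 124700240, that the second transcript keeps and the coding transcript lacks.
Lpcat3 exon 4 to exon 5: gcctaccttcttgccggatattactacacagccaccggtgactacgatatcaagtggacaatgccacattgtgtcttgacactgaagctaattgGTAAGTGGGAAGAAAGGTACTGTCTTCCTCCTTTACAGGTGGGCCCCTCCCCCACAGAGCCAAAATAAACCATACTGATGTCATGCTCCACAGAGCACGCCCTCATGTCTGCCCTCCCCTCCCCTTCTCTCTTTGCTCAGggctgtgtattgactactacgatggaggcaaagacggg
The exons around it are shared by both transcripts. The second transcript also ends earlier in the last exon. The tables give estimates per transcript, so reads within the intron itself were not counted here. Whether the RNA of these livers keeps the intron was not tested.

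The libraries held 40883986 to 65516723 estimated counts. The deleted ones were the smaller, with 44612647 ± 3199586 counts on average against 53099910 ± 6934771 in the intact ones (SD, n = 5 and 7; 2-sided exact permutation test within diets, p = 0.0267, and p = 0.05 without the library labelled cre MCD 3). A single row of ribosomal RNA took 11.5% to 18.9% of the counts in deleted and 5.60% to 43.0% in intact libraries (exact permutation p = 0.907). The 13 mitochondrially encoded coding genes took 14.9% to 30.0% in deleted and 6.26% to 14.7% in intact libraries on NC, where the classes did not overlap. On MCD they took 7.39% to 10.9% in deleted and 8.81% to 13.2% in intact libraries. Over both diets this difference did not pass an exact permutation test within diets (p = 0.177). All 12 libraries, labelled male, held 7361 to 23106 counts of Xist and 0 of the Y-linked Ddx3y, Uty, Eif2s3y and Kdm5d. These are counts of female livers and went against the label. A principal component with 40.2% of the variance set MCD apart from NC libraries. On the next one, with 16%, flox NC 3 lay at -51.8 and the library labelled cre MCD 3 at -24.4, below the other 10. Summed hepatocyte markers were at 117742 to 120274 CPM in deleted and 73927 to 134579.5 CPM in intact libraries on MCD, and at 94744 to 120395 CPM in deleted and 83058 to 152432 CPM in intact libraries on NC. Of 16 pancreatic markers 12 were at 0 in every library.

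The number of genes that differed between the classes, once diet was taken into account, depended on the test. With deleted set against intact and diet as a term in edgeR's quasi-likelihood fit, 6 of 16522 genes other than Lpcat3 had an adjusted p under 0.05 (0.0363%), 2 higher (0.0121%) and 4 lower (0.0242%) in deleted livers. DESeq2 called 147 genes, 46 higher and 101 lower, with 5 of these 6 among them, and limma voom called 9 with 4 among them. With single libraries left out, edgeR called 1 to 17. The genes described next are those of edgeR's test with all libraries. An unadjusted p under 0.05 was reached by 1539 genes (9.31%), of which 610 were higher (3.69%) and 929 lower (5.62%). The median log2 fold change of all tested genes was -0.01, with 8040 above 0 and 8482 below. In the same fit 6.63% of genes rose and 5.84% fell on MCD against NC. Of genes whose classes did not overlap within either diet, 140 were higher (0.847%) and 160 lower (0.968%) in deleted livers. Named genes were largely chosen by their p in the same comparison, so lack of overlap in them is a description, not added support. P-values measure only the spread between these libraries, since the labels number the replicates without more on their source. A test with only the NC libraries called 5 of 14855 rows, with 777 at an unadjusted p under 0.05. With only the MCD libraries edgeR called 0 of 15554, with 1716 at an unadjusted p under 0.05.

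Pdk4 fell in deleted livers. It encodes pyruvate dehydrogenase kinase 4, which shuts pyruvate out of oxidation during fasting and is a target of PPARalpha (chromosome 6, 5483351 to 5496309). On MCD it stood at 53.5 and 32.9 CPM in deleted livers, against 119, 117 and 87.2 CPM in flox livers and 109 CPM for the library labelled cre MCD 3. In NC livers it was at 10.6, 9.10 and 14.2 CPM in deleted and 60.3, 45.2 and 78.2 CPM in intact livers. No deleted library reached an intact one on the same diet, and the library labelled cre MCD 3 lay among the flox livers. The log2 fold change was -1.89 (SE 0.24, adjusted p = 0.00757). It lay between -2.18 and -1.74 with any 1 library left out and passed in each of these 12 fits. When libraries were grouped by their labels it was -1.58 and did not pass (adjusted p = 0.361).

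Ntrk2, the BDNF receptor TrkB and a gene with higher expression in female than in male mouse liver, fell as well (chromosome 13, 58806569 to 59133970). On MCD it was at 0.487 and 0.147 CPM in deleted livers, against 8.59, 3.28 and 8.52 CPM in flox livers and 5.86 CPM for the library labelled cre MCD 3. NC livers held 2.14, 0.209 and 0.581 CPM in deleted and 5.81, 9.60 and 9.91 CPM in intact livers. The highest deleted value, in cre NC 1, was below the lowest intact value of either diet. The log2 fold change was -3.62 (SE 0.54, adjusted p = 0.025). It passed in 7 of 12 fits with 1 library left out, and was lost without flox NC 2, flox NC 3, cre NC 3, cre MCD 1 or cre MCD 2, with adjusted p of up to 0.0983.

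Gpc1, glypican 1, a heparan sulfate proteoglycan held in the membrane by a lipid anchor, rose in deleted livers (chromosome 1, 92831645 to 92860779). On MCD it was at 37.1 and 38.3 CPM in deleted livers, against 16.8, 16.6 and 14.8 CPM in flox livers and 19.2 CPM for the library labelled cre MCD 3. On NC it was at 12.5, 11.3 and 13.7 CPM in deleted livers and at 1.51, 0.985 and 1.32 CPM in intact ones. Libraries of 1 class and diet lay close together, and the classes were well apart on both diets. The log2 fold change over both diets was 2.29 (SE 0.33, adjusted p = 0.0224), and 10 of 12 fits with 1 library left out called it. The call was lost without flox NC 2 or flox NC 3 (adjusted p of up to 0.072). Gpc1 also rose on MCD against NC in the same fit (2.82, adjusted p = 9.79e-05).

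Oxsm encodes the condensing enzyme of mitochondrial fatty acid synthesis (chromosome 14, 16238652 to 16249808), and it rose. On MCD it was at 40.5 and 41.1 CPM in deleted livers, against 17.6, 17.1 and 17.6 CPM in flox livers and 20.1 CPM for the library labelled cre MCD 3. On NC its level was 29.4, 41.6 and 38.4 CPM in deleted and 24.1, 23.8 and 24.1 CPM in intact livers. Tacc2, a coiled-coil protein of the centrosome, fell (chromosome 7, 130577438 to 130764785). On MCD it was at 17.0 and 15.4 CPM in deleted livers, against 25.4, 32.6 and 25.8 CPM in flox livers and 22.0 CPM for the library labelled cre MCD 3. In NC livers it was at 13, 11 and 9.90 CPM in deleted and 22.4, 25.5 and 23.1 CPM in intact livers. Neither gene's classes overlapped on either diet, although the changes were modest, at 0.88 for Oxsm (SE 0.14, adjusted p = 0.0362) and -0.89 for Tacc2 (SE 0.14, adjusted p = 0.0362). Each was called in only 2 of 12 fits with 1 library left out, Oxsm with adjusted p of up to 0.215 and Tacc2 of up to 0.186. With the library labelled cre MCD 3 left out, Oxsm was at 0.89 and did not pass (adjusted p = 0.0686), while Tacc2 at -0.94 (adjusted p = 0.0311), Pdk4 at -1.93 (adjusted p = 0.0129), Ntrk2 at -3.62 (adjusted p = 0.0374) and Gpc1 at 2.36 (adjusted p = 0.021) did.

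The sixth called row was 1 of 3 rows that carry the symbol Pakap, a gene for a protein kinase A anchoring protein (chromosome 4). The called row and the next overlap in position. The called row (57568179 to 57896982) was at 6.34, 6.23 and 5.54 CPM in the flox NC libraries and at 0 in the other 9 libraries of both classes. The second row (57717657 to 57896984) was at 8.86 and 9.28 CPM in deleted and 6.14 to 13.8 CPM in intact livers on MCD. NC livers held 5.10 to 5.85 CPM in deleted and 0.0627 to 0.148 CPM in intact livers, low where the called row was filled. The third row was at 0.267 CPM or less in every library. Summed over all 3 rows, an alternative chosen after seeing the data, Pakap was at 9.05 to 9.33 CPM in deleted and 6.14 to 13.8 CPM in intact livers on MCD. On NC the sum was 5.10 to 5.85 CPM in deleted and 5.60 to 6.76 CPM in intact livers, and it did not pass (log2 fold change -0.23, adjusted p = 0.738). How the authors' counting divided reads between these rows is uncertain.

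**Figure D2:**
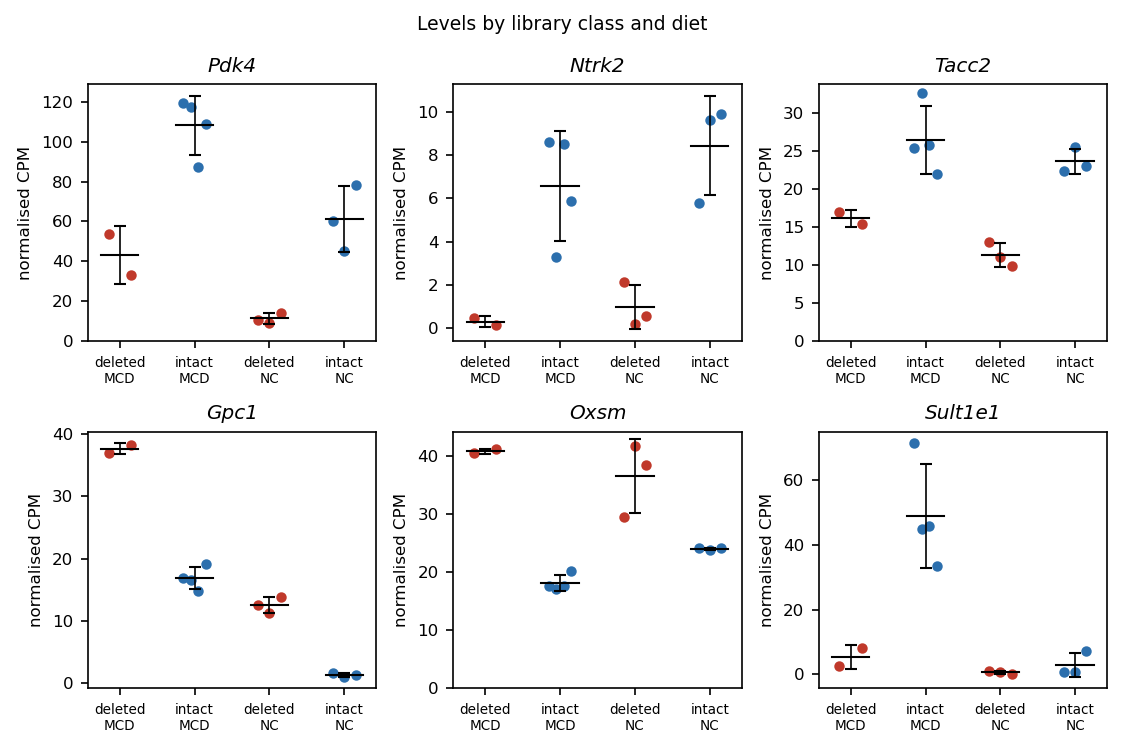
Normalised CPM of the 5 called genes with a single row and of Sult1e1, which was not called, for deleted (red) and intact (blue) libraries on MCD and NC. Points are libraries, lines are means and bars are SD (n = 2, 4, 3 and 3 from left to right). For the first 5 genes the points of the classes do not overlap on either diet, and Sult1e1 is apart on MCD alone.

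Of the genes just short of the threshold, 4 had the same adjusted p of 0.0677, and none of them overlapped between the classes on either diet. They were chosen by small p in the same comparison, so this lack of overlap adds no support. Over all genes 0.847% were higher and 0.968% lower without overlap. Ehhadh, the peroxisomal bifunctional enzyme of fatty acid oxidation, was at 311 and 236 CPM in deleted livers on MCD, against 795, 1399.6 and 951 CPM in flox livers and 805 CPM for the library labelled cre MCD 3. On NC it was at 194, 225 and 268 CPM in deleted and 336, 411 and 673 CPM in intact livers (log2 fold change -1.42, SE 0.25). Hsd3b2, a hydroxysteroid dehydrogenase, was at 11.4 and 11 CPM in deleted and 2.93 to 5.74 CPM in intact livers on MCD, and at 13.4 to 18.9 CPM in deleted and 7.69 to 11.9 CPM in intact livers on NC (1.11, SE 0.19). Gemin2, of the complex that assembles spliceosomal ribonucleoproteins, had a log2 fold change of -0.80 (SE 0.14). For the X-linked Tceal8 it was 0.85 (SE 0.15). Ehhadh (adjusted p = 0.0368) and Hsd3b2 (adjusted p = 0.0407) passed with limma voom, and Gemin2 and Tceal8 did not (adjusted p = 0.0642 for both). All 4 passed with DESeq2, with adjusted p of 9.46e-07 for Ehhadh, 0.000561 for Hsd3b2, 3.67e-05 for Gemin2 and 0.000315 for Tceal8.

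Sult1e1, the estrogen sulfotransferase that the title of the series names in another spelling, did not pass. On MCD it was at 2.71 and 7.99 CPM in deleted livers, against 71.3, 44.7 and 45.8 CPM in flox livers and 33.6 CPM for the library labelled cre MCD 3. On NC its level was 0.905, 0.866 and 0 CPM in deleted and 0.86, 0.802 and 7.19 CPM in intact livers. The classes were apart on MCD, with the library labelled cre MCD 3 the lowest of the intact ones, and overlapped on NC, where only flox NC 3 stood above 1 CPM. The log2 fold change over both diets was -2.79 (SE 0.68, unadjusted p = 0.000918, adjusted p = 0.241), and with only the MCD libraries it was -3.17 (adjusted p = 0.0985). It passed with limma voom (adjusted p = 0.0368) and in no fit with 1 library left out, at -2.85 with the library labelled cre MCD 3 left out (adjusted p = 0.286). At an unadjusted p under 0.05, 3.69% of all genes were higher and 5.62% lower. Among 17 sulfotransferase genes tested, 2 were higher and 2 lower at that p. The higher ones included Sult2a7, a steroid sulfotransferase, at 3.36 and 4.11 CPM in deleted and 0.155 to 0.999 CPM in intact livers on MCD, and at 28.3 to 72.0 CPM in deleted and 3.32 to 27.1 CPM in intact livers on NC (2.25, adjusted p = 0.2).

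Pathways were read from 29 gene lists, each given by its counts, since apart from Pdk4 and Ntrk2 no list held a called gene. Genes of fatty acid oxidation and PPARalpha targets were mostly lower in deleted livers. Of 45 tested, 1 fell (Pdk4) and 0 rose. At an unadjusted p under 0.05, 17 were lower and 1 higher, against 5.62% and 3.69% of all genes. The log2 fold change was below 0 in 8482 of all 16522 genes and in 37 of these 45 (median -0.37). In 5 of them, against 0.968% of all genes, every deleted library lay below every intact library of its diet. Beside Pdk4 and Ehhadh the following 3 were picked after their values were seen. Acot1, a cytosolic acyl-CoA thioesterase, was at 16.4 and 12.8 CPM in deleted and 46.6 to 129 CPM in intact livers on MCD, and at 21.7 to 35.5 CPM in deleted and 34.9 to 74.5 CPM in intact livers on NC (-1.53, adjusted p = 0.241). Acot3, a peroxisomal thioesterase, had a log2 fold change of -1.09 (adjusted p = 0.314), and Hadhb, of the mitochondrial trifunctional protein, of -0.70 (adjusted p = 0.314). The 1 gene higher at an unadjusted p under 0.05 was the male-biased omega-hydroxylase Cyp4a12a (1.95). DESeq2 called 5 of the list lower and limma voom 2, against 101 and 4 of all genes, and none higher. With the library labelled cre MCD 3 left out, 17 were lower at an unadjusted p under 0.05, against 819 of all genes. The list median was -0.29. Without flox NC 3, the library apart on the second component, 12 were lower at that p, against 767 of all genes. The list median was then -0.22.

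Genes of triglyceride synthesis and lipid droplets lay the same way. None of 26 passed, and 10 were lower and 1 higher at an unadjusted p under 0.05, against 5.62% and 3.69% of all genes (median -0.39). DESeq2 called 3 of them lower and limma voom 0, against 101 and 4 of all genes. Plin2, the main coat protein of hepatocyte lipid droplets, was at 262 and 293 CPM in deleted livers on MCD, against 498, 1395 and 640 CPM in flox livers and 739 CPM for the library labelled cre MCD 3. In NC livers it was at 155, 137 and 170 CPM in deleted and 179, 266 and 476 CPM in intact livers (-1.25, SE 0.29, adjusted p = 0.241). The classes did not overlap on either diet. Mgll, monoglyceride lipase, was at 122 and 102 CPM in deleted and 183 to 273 CPM in intact livers on MCD (-0.72 over both diets, adjusted p = 0.241). On NC not every deleted library lay below every intact one for Mgll. Of genes picked after their values were seen, Lpin2, a phosphatidate phosphatase, had a log2 fold change of -0.61 (adjusted p = 0.28), Gpat3, which starts glycerolipid synthesis, of -0.62 (adjusted p = 0.355) and G0s2, an inhibitor of adipose triglyceride lipase, of -1.0 (adjusted p = 0.38). Cidec, which fuses lipid droplets, was at 10 and 9.77 CPM in deleted and 15.1 to 65.2 CPM in intact livers on MCD, and under 1 CPM in all NC livers (-1.06, adjusted p = 0.486). Without flox NC 3, 6 of the list were lower and 4 higher at an unadjusted p under 0.05. Over all genes that fit gave 767 lower and 650 higher.

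The enzymes nearest to Lpcat3 in function gave no call. Of 15 other lysophospholipid acyltransferases and related acyltransferases 0 passed, and 0 reached an unadjusted p under 0.05 in either direction (median -0.13; 0 called with DESeq2 and with limma voom). Agpat4, of phosphatidate synthesis, had the smallest p, at 1.02 and 0.953 CPM in deleted and 1.32 to 2.85 CPM in intact livers on MCD, with overlap on NC (-0.80, adjusted p = 0.536). In Gpat4, the microsomal glycerol-phosphate acyltransferase, the classes overlapped on both diets (-0.37, adjusted p = 0.604). Over all genes 5.62% were lower and 3.69% higher at an unadjusted p under 0.05. Of 15 phospholipases 1 was lower at that p. This was Lipg, endothelial lipase, at 2.97 and 3.30 CPM in deleted and 4.67 to 9.85 CPM in intact livers on MCD, and at 1.34 to 5.78 CPM in deleted and 7.88 to 16.8 CPM in intact livers on NC (-1.35, adjusted p = 0.241), which DESeq2 called. Of 18 genes of phosphatidylcholine and phosphatidylethanolamine synthesis 2 were lower and 0 higher at an unadjusted p under 0.05. These were Cds2, of CDP-diacylglycerol synthesis (-0.51, adjusted p = 0.361), and Pisd, which makes phosphatidylethanolamine in mitochondria (-0.62, adjusted p = 0.471).

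Lipogenic, cholesterol, LXR and lipoprotein genes gave no call with edgeR, DESeq2 or limma voom. At an unadjusted p under 0.05, 5.62% of all genes were lower and 3.69% higher. Among 24 SREBP-1c and fatty acid synthesis genes 4 were lower and 1 higher. The counts were 1 lower and 0 higher of 25 cholesterol synthesis genes, 2 and 0 of 16 LXR targets, and 2 and 0 of 25 lipoprotein genes. Scd1, the stearoyl-CoA desaturase, was at 25.3 and 29.4 CPM in deleted livers on MCD, against 48.0, 63.6 and 172 CPM in flox livers and 391 CPM for the library labelled cre MCD 3. NC livers held 2709, 1138 and 2101 CPM in deleted and 2464, 2295 and 2337 CPM in intact livers (-1.27, adjusted p = 0.535, and 0.20 when libraries were grouped by their labels). Fads2, the delta-6 desaturase that makes polyunsaturated fatty acids, was at 122 and 153 CPM in deleted and 242 to 437 CPM in intact livers on MCD, with overlap on NC (-0.86, adjusted p = 0.344). Elovl3, an elongase with higher expression in males, was at 11.6 and 6.89 CPM in deleted and 2.38 to 4.17 CPM in intact livers on MCD, with overlap on NC (0.87, adjusted p = 0.369). In the cholesterol list Hmgcs1, the synthase that makes HMG-CoA, had a log2 fold change of 0.56 (adjusted p = 0.584). It was at 618 and 738 CPM in deleted and 222 to 396 CPM in intact livers on MCD, with overlap on NC.

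**Figure D3:**
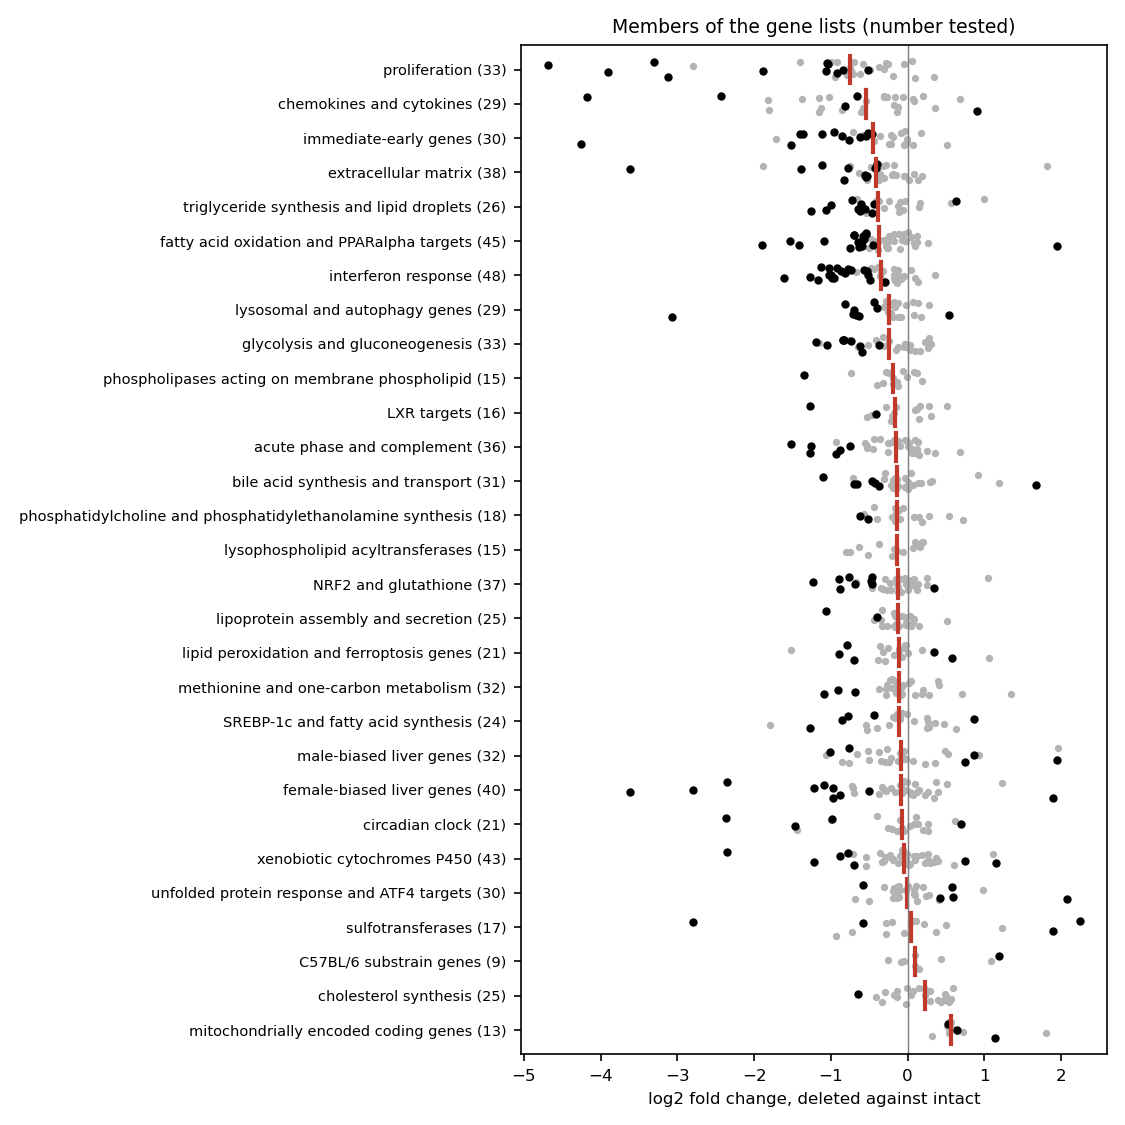
Log2 fold change of deleted against intact livers, with diet in the fit, for the tested members of 29 gene lists (number tested in brackets). Black points had an unadjusted p under 0.05, grey points did not, and red lines mark the list medians. Medians run from -0.74 for proliferation to 0.56 for the mitochondrially encoded genes, and the acyltransferase list has no black point.

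Of 48 interferon-induced genes 0 passed. At an unadjusted p under 0.05, 19 were lower and 0 higher, against 5.62% and 3.69% of all genes. The log2 fold change was below 0 in 8482 of all 16522 genes and in 44 of these 48 (median -0.35). In 8 of them, against 0.968% of all genes, the deleted libraries lay below the intact ones on both diets. DESeq2 called 6 lower and limma voom 0, against 101 and 4 of all genes. Without the library labelled cre MCD 3, 19 were lower at an unadjusted p under 0.05, against 819 of all genes. Without flox NC 3 the number was 16, against 767 of all genes. Bst2, tetherin, which holds budding virions at the cell surface, was at 28.3 and 34.9 CPM in deleted livers on MCD, against 53.0, 42.4 and 94.8 CPM in flox livers and 77.4 CPM for the library labelled cre MCD 3. On NC it was at 55.7, 49.1 and 56.2 CPM in deleted and 75.6, 92.5 and 107 CPM in intact livers (-0.92, SE 0.20, adjusted p = 0.209). Cxcl9, a chemokine induced by interferon gamma, was at 5.13 and 5.76 CPM in deleted and 8.29 to 10.7 CPM in intact livers on MCD, and at 5.66 to 8.63 CPM in deleted and 10.6 to 16.1 CPM in intact livers on NC (-0.82, adjusted p = 0.171). Of genes picked after their values were seen, the RNA sensor Oas1a had a log2 fold change of -1.61 (adjusted p = 0.209), the nucleic acid sensor Zbp1 of -1.17 (adjusted p = 0.241) and Ifi27 of -1.0 (adjusted p = 0.241).

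Immediate-early genes respond within minutes to stress and growth factors. Of 30 tested 0 passed, and 12 were lower and 0 higher at an unadjusted p under 0.05, against 5.62% and 3.69% of all genes. In 27 the log2 fold change was below 0 and in 3 above (median -0.45), against 8482 and 8040 of all 16522 genes. Without the library labelled cre MCD 3, 17 were lower at an unadjusted p under 0.05, against 819 of all genes. DESeq2 called 4 lower and limma voom 0, against 101 and 4 of all genes. Btg2, an antiproliferative factor, was at 1.95 and 3.65 CPM in deleted and 7.47 to 15.8 CPM in intact livers on MCD, and overlapped on NC at 2.03 to 2.85 CPM in deleted and 2.76 to 9.36 CPM in intact livers (-1.51, adjusted p = 0.209). Of genes picked after their values were seen, the transcription factor Egr1 was at 9.30 and 10.7 CPM in deleted livers on MCD, against 22.6, 52.0 and 69.0 CPM in flox livers and 14.0 CPM for the library labelled cre MCD 3. On NC its level was 7.5, 6.33 and 6.69 CPM in deleted and 8.24, 10.1 and 18.2 CPM in intact livers (-1.36, adjusted p = 0.318). Dusp1, a phosphatase of MAP kinases, had a log2 fold change of -0.62 (adjusted p = 0.318). For the small MAF protein Maff it was -1.40 (adjusted p = 0.305), with overlap on MCD and 0.603 to 1.79 CPM in deleted and 4.56 to 7.86 CPM in intact livers on NC.

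Of 16 markers of recruited and lipid-associated macrophages 0 passed (median -0.70), and DESeq2 and limma voom called 0. At an unadjusted p under 0.05, 6 were lower and 0 higher, against 5.62% and 3.69% of all genes. The summed level of the 16 markers was 327 and 484 CPM in deleted and 321 to 789 CPM in intact livers on MCD. On NC it was 117 to 173 CPM in deleted and 117 to 166 CPM in intact livers. The summed ranges overlapped on both diets. Mmp12, the macrophage elastase, was at 2.02 and 2.35 CPM in deleted livers on MCD, against 48.3, 11.8 and 42.0 CPM in flox livers and 8.10 CPM for the library labelled cre MCD 3. It was under 0.3 CPM in all NC livers (-3.45, adjusted p = 0.209). With flox NC 3 and the library labelled cre MCD 3 left out together it passed. Lyz2, lysozyme, was at 21.4 and 34.2 CPM in deleted and 38.0 to 108 CPM in intact livers on MCD, and at 19.8 to 25.5 CPM in deleted and 27.8 to 32.0 CPM in intact livers on NC (-0.88, adjusted p = 0.355). Trem2, a lipid receptor of these macrophages picked after its values were seen, was at 1.07 and 1.58 CPM in deleted and 1.93 to 12.1 CPM in intact livers on MCD (-1.60 over both diets, adjusted p = 0.405). On NC not every deleted library lay below every intact one for Trem2. Of 14 Kupffer cell markers 2 were lower at an unadjusted p under 0.05, the complement subunit gene C1qb (-0.53) and the folate receptor gene Folr2 (-0.71).

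**Figure D4:**
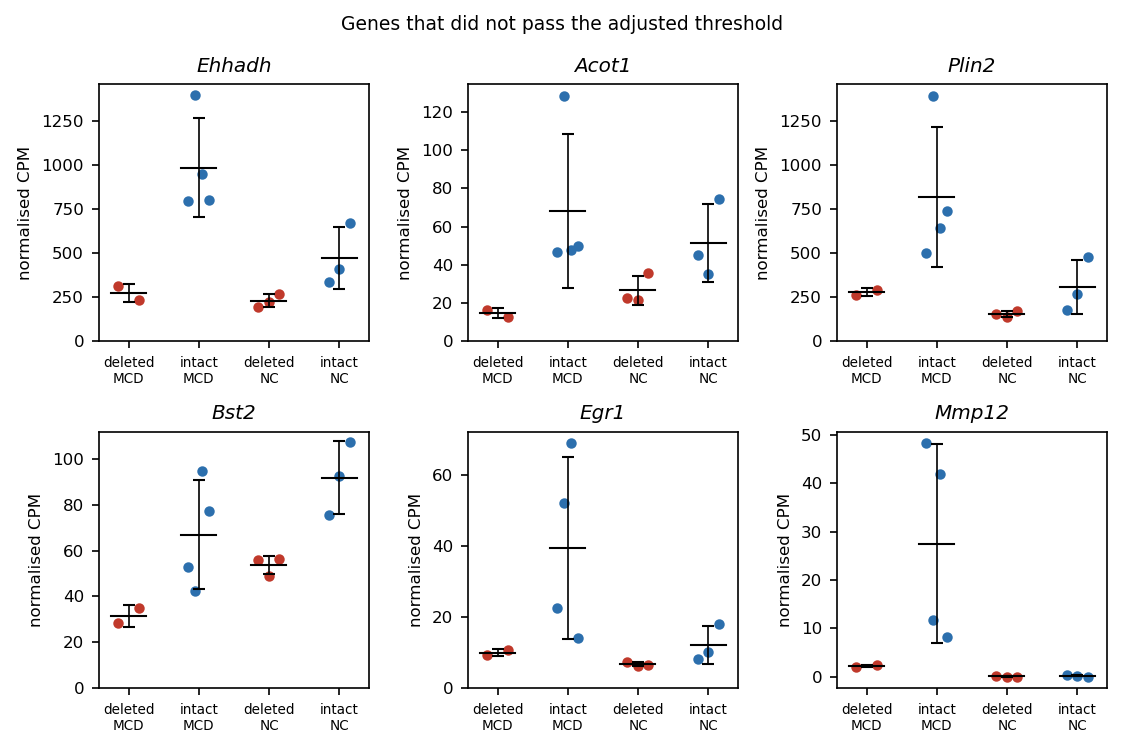
Normalised CPM of 6 genes that did not pass the adjusted threshold, for deleted (red) and intact (blue) libraries on MCD and NC. Points are libraries, lines are means and bars are SD (n = 2, 4, 3 and 3 from left to right). Ehhadh, Plin2, Bst2 and Egr1 do not overlap between the classes on either diet, Acot1 overlaps on NC, and Mmp12 is near 0 on NC.

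Matrix and proliferation genes gave no call with edgeR. At an unadjusted p under 0.05, 5.62% of all genes were lower and 3.69% higher. Of 38 extracellular matrix genes 12 were lower and 0 higher at that p (median -0.41), and DESeq2 and limma voom called 0. Bgn, the proteoglycan biglycan, was at 22.9 and 30.5 CPM in deleted and 36.6 to 65.9 CPM in intact livers on MCD, and at 23.6 to 31.6 CPM in deleted and 33.2 to 35.7 CPM in intact livers on NC (-0.55, adjusted p = 0.344). Nid1, a basement membrane protein, was at 11.5 and 12.0 CPM in deleted and 15.7 to 23.3 CPM in intact livers on MCD (-0.54, adjusted p = 0.344), with overlap on NC. Summed stellate cell and fibroblast markers were at 433 and 561 CPM in deleted and 542 to 724 CPM in intact livers on MCD, and at 376 to 415 CPM in deleted and 333 to 438 CPM in intact livers on NC. Of 33 proliferation genes 11 were lower and 0 higher at an unadjusted p under 0.05 (median -0.74). DESeq2 called 3 lower and limma voom 0, against 101 and 4 of all genes. Cdkn1a, the cell cycle inhibitor p21, was among the lower ones, at 17.0 and 10.7 CPM in deleted and 20 to 27.8 CPM in intact livers on MCD, and at 12.0 to 25.2 CPM in deleted and 26.9 to 63.5 CPM in intact livers on NC (-1.04, adjusted p = 0.241). Summed over the list, the inhibitor Cdkn1a included, levels were 164 and 192 CPM in deleted and 190 to 294 CPM in intact livers on MCD. On NC the sums were 71.9 to 98.4 CPM in deleted and 128 to 184 CPM in intact livers. A sum without Cdkn1a was not made, so these sums are not levels of proliferation alone. Cyclin D1 (Ccnd1) had a log2 fold change of -0.85 (adjusted p = 0.318). Of the other cell type markers, 5 of 20 for stellate cells and fibroblasts, 1 of 20 for hepatocytes, 1 of 20 for lymphocytes and 1 of 13 for cholangiocytes were lower at an unadjusted p under 0.05 and 0 were higher. Of the tested markers of neutrophils (5), mesothelium and gallbladder (4), pancreas (2), adipocytes (3) and red cells (6), 0 reached it. The lower shares for hepatocytes and lymphocytes (5% each) were near that of all genes. The part of these macrophage and stellate cell marker levels in the lower values was not tested.

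The list with the highest median was that of the 13 mitochondrially encoded coding genes, at 0.56. All 13 were above 0, against 8040 of all 16522 genes, and 3 had an unadjusted p under 0.05. None passed with edgeR, DESeq2 or limma voom. Over all genes 3.69% were higher and 5.62% lower at an unadjusted p under 0.05. mt-Nd1, a subunit of complex I, was at 17115 and 10777 CPM in deleted and 10885 to 15442 CPM in intact livers on MCD, and at 20014 to 37486 CPM in deleted and 11276 to 18259 CPM in intact livers on NC (0.64, adjusted p = 0.473). Summed, the 13 genes were at 66125 and 107327 CPM in deleted and 75608 to 109299 CPM in intact livers on MCD. On NC the sums were 166760 to 365616 CPM in deleted and 91541 to 158994 CPM in intact livers. The summed classes thus overlapped on MCD and were apart on NC alone. Without flox NC 3 the list median was 0.44 and 0 of the 13 had an unadjusted p under 0.05. Of 17 markers of sinusoidal endothelium 16 had a log2 fold change above 0, against 8040 of all 16522 genes. Their median was 0.15, and 2 had an unadjusted p under 0.05. These were Fcgr2b, an inhibitory Fc receptor of these cells (0.45), and the nuclease gene Dnase1l3 (0.32). The 17 markers summed to 377 and 386 CPM in deleted and 279 to 349 CPM in intact livers on MCD, and to 333 to 350.5 CPM in deleted and 269 to 348 CPM in intact livers on NC.

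Of bile acid, cytochrome P450 and sex-biased genes Ntrk2 alone passed with edgeR. Slc10a2, the apical sodium-dependent bile acid transporter, was at 2.97 and 2.71 CPM in deleted and 5.02 to 8.88 CPM in intact livers on MCD, and at 6.89 to 12.5 CPM in deleted and 17.1 to 19.0 CPM in intact livers on NC (-1.10, SE 0.20, adjusted p = 0.0911). Cyp2a4, a female-biased steroid hydroxylase, was at 609 and 446 CPM in deleted and 659 to 1448 CPM in intact livers on MCD, and at 181 to 231 CPM in deleted and 336 to 440 CPM in intact livers on NC (-0.88, adjusted p = 0.226). Its sequence is close to that of Cyp2a5, so the counts of both are uncertain. Cyp2b10, the main target of the receptor CAR, was at 0 and 0.458 CPM in deleted and 1.45 to 4.90 CPM in intact livers on MCD, and at 2.52 to 6.29 CPM in deleted and 10.7 to 22.9 CPM in intact livers on NC (-2.35, adjusted p = 0.241). Over all genes 5.62% were lower and 3.69% higher at an unadjusted p under 0.05. Of 43 xenobiotic cytochromes P450 5 were lower and 2 higher, and of 31 bile acid genes 6 and 1. Of 40 female-biased genes these numbers were 9 and 1 (Ntrk2 called), and of 32 male-biased genes 2 and 3. DESeq2 called 2 cytochromes P450, 1 bile acid gene and 5 female-biased genes lower, and limma voom called Sult1e1 of the female-biased list. Over all genes these tests called 101 and 4 lower.

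At an unadjusted p under 0.05, 5.62% of all genes were lower and 3.69% higher. Of 33 genes of glycolysis and gluconeogenesis 9 were lower and 0 higher. Among them was Igfbp1, an insulin-repressed binding protein for IGF, at -1.19 (adjusted p = 0.241). Of 37 NRF2 and glutathione genes 8 were lower and 1 higher. The heme oxygenase gene Hmox1 was among the lower ones, at -0.89 (adjusted p = 0.319). Only 4 were lower without the library labelled cre MCD 3 and 3 without flox NC 3, against 819 and 767 of all genes. Of 29 lysosomal and autophagy genes 8 were lower and 1 higher, and of 36 acute phase and complement genes 6 and 0. Among 30 genes of the unfolded protein response and ATF4 targets 4 were higher and 1 lower. Log2 fold changes were above 0 in 15 and below 0 in 15 (median -0.0067). The list summed to 2963 and 3667 CPM in deleted and 2276 to 2613 CPM in intact livers on MCD. On NC the sums overlapped, at 2127 to 2603 CPM in deleted and 2300 to 4063 CPM in intact livers. Atf4 itself was at 110 and 109 CPM in deleted and 60.7 to 91.8 CPM in intact livers on MCD, and at 86.7 to 95.6 CPM in deleted and 64.6 to 74.9 CPM in intact livers on NC (0.42, adjusted p = 0.343). Asns, the asparagine synthetase that ATF4 induces, was at 13.2 and 21.5 CPM in deleted and 4.73 to 7.52 CPM in intact livers on MCD, and it was 0 in 5 of the 6 NC livers (2.07, adjusted p = 0.355, called by limma voom). Of 32 methionine and one-carbon genes 3 were lower and 0 higher, with Csad, of taurine synthesis, at -0.91 (adjusted p = 0.241). At an unadjusted p under 0.05, 1 gene was higher and 4 lower of 29 chemokines and cytokines, 2 and 3 of 21 lipid peroxidation genes, 1 and 3 of 21 clock genes, and 1 and 0 of 9 genes that differ between C57BL/6 substrains. DESeq2 called 2 genes lower in each of the chemokine and lipid peroxidation lists and 1 lower in each of the glycolysis, acute phase, methionine and clock lists. It called 1 substrain gene and 1 sulfotransferase higher, and 1 hepatocyte marker lower. Over all genes it called 101 lower and 46 higher.

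Genes around Lpcat3 gave no call. Within 1 Mb of the gene 49 were tested, of which 0 passed (median -0.02), and DESeq2 and limma voom called 0. At an unadjusted p under 0.05, 7 were lower and 0 higher, against 5.62% and 3.69% of all genes. Emg1, a ribosome biogenesis factor that overlaps the end of Lpcat3, was at 49.9 and 50.9 CPM in deleted and 40.6 to 44.1 CPM in intact livers on MCD, and overlapped on NC (0.13, adjusted p = 0.78). Its neighbours Phb2, a prohibitin, and Ptpn6, the phosphatase SHP-1, were at -0.09 (adjusted p = 0.9) and -0.11 (adjusted p = 0.889). Grcc10 stood at -0.59 (adjusted p = 0.461).

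Whether the difference between the classes depended on diet was tested as an interaction. It passed for 2 of 16522 genes (0.0121%), against 1071 at an unadjusted p under 0.05 (6.48%), and the second Pakap row was 1 of the 2. The other was Gpc1, whose log2 fold change between the classes was smaller on MCD than on NC (interaction -2.14, adjusted p = 0.0272). Tested within each diet it was 1.18 on MCD (adjusted p = 0.0766) and 3.29 on NC (adjusted p = 0.00167). The interaction passed in 2 of 12 fits with 1 library left out, those without flox NC 1 or flox NC 3 (adjusted p of up to 0.274 in the others), was -2.07 with the library labelled cre MCD 3 left out (adjusted p = 0.0662), and did not pass when the Pakap rows were summed (adjusted p = 0.0545). Of the next 3 genes, Fasn, fatty acid synthase, lay in opposite directions on the diets. It was at 55.2 and 84.9 CPM in deleted and 22.3 to 35.1 CPM in intact livers on MCD, and at 34.1 to 70.0 CPM in deleted and 77.0 to 104 CPM in intact livers on NC (interaction 2.19, adjusted p = 0.281). Ero1lb, an oxidase of the endoplasmic reticulum, was at 39.2 and 42.3 CPM in deleted and 18.2 to 22.0 CPM in intact livers on MCD, and at 20.5 to 26.2 CPM in deleted and 26.4 to 38.3 CPM in intact livers on NC (interaction 1.53, adjusted p = 0.267). Eprs, a tRNA synthetase, had an interaction of 1.26 (adjusted p = 0.439), with 93.0 and 104 CPM in deleted and 43.2 to 48.5 CPM in intact livers on MCD. For Pdk4 the interaction was 1.11 (adjusted p = 0.63), and for Sult1e1 it was -0.84 (adjusted p = 0.969).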

How the data were processed

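Poly(A) RNA of 12 livers was sequenced from SMARTER libraries, per the labels' protocols. The authors' tools, per the submitters' processing notes, were cutadapt, FastQC, HISAT2, StringTie and edgeR with mm10, and versions and roles are not given in the sources used here. The authors deposited estimated counts for 55401 genes, and FPKM and counts for 142604 transcripts. Every gene count was the sum of its transcript counts. The authors' FPKM values were used only to form the classes. The deposited estimated counts were tested with edgeR 4.0.16 in R 4.3.3. The settings were TMM, filtering by labelled group and a quasi-likelihood test of class with diet as covariate. Benjamini-Hochberg adjustment was over all genes that passed the filter, with a threshold of 0.05. CPM are scaled by TMM. How StringTie divides reads between overlapping models can move values of transcripts and of overlapping genes.

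Named genes were the called genes, up to 10 with the smallest p where fewer than 10 were called, Sult1e1, up to 2 uncalled or 4 called members of each list with a mean of at least 1 CPM, the genes beside Lpcat3, and up to 5 for the interaction. The classes, the 29 pathway and 12 marker lists and the named genes were chosen with earlier results of these data known. DESeq2 1.42.0, limma 3.58.1 (voom), other filters and scalings, the labels in place of the classes, each diet alone, and leaving out each library were alternatives. Counts were simulated with these classes and no effect of diet, and changes were placed only in genes with a mean over 1 CPM. On these counts the class test over 15973 genes recovered 52% of 2-fold and 93% of 4-fold changes. The interaction test over 15882 genes recovered 2% of 2-fold and 47% of 4-fold changes.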

Additional observations from a re-analysis of the deposited data

Results flagged for a closer look

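Of 18 groups of libraries examined, 4 held a library whose gap to the next was large for the group's range, and chance gives about 1 in 20. Ntrk2 was at 2.14 CPM in cre NC 1, above the other 4 deleted livers. Tacc2 was at 32.6 CPM in flox MCD 2, above the other 6 intact livers. Oxsm was at 29.4 CPM in cre NC 1, below the other 4 deleted livers. The ribosomal row took 43.0% of the counts in flox NC 1, more than in the other 6 intact livers.

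The interaction of class and diet passed for 2 rows in edgeR's test with all libraries. For the second Pakap row the log2 fold change on MCD minus that on NC was -6.08 (edgeR, adjusted p = 0.000267), and for Pakap summed over its 3 rows it was -0.08 (adjusted p = 0.996). For Gpc1 it was -2.14 (edgeR, adjusted p = 0.0272). The Gpc1 interaction also passed with DESeq2's test (adjusted p = 1.22e-08). It did not pass with limma voom (adjusted p = 0.28), with edgeR by label (adjusted p = 0.147) or with edgeR and a replicate block (adjusted p = 0.0738). Nor did it pass in most edgeR fits with 1 library left out.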

How the results depend on the processing

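DESeq2's size factors, a filter at 1 CPM in at least 3 libraries, and leaving out the ribosomal row and mitochondrial genes kept all 6 called rows. DESeq2's test called 46 higher and 101 lower, 147 in all with 5 of the 6 among them. Limma voom called 5 higher and 4 lower (4 of the 6 among them), and the share of the ribosomal row as a covariate gave 5 higher and 6 lower (all 6 among them). Grouping by label called 0 higher and 1 lower, the Pakap row that was also called by class. Its call by class was lost when the Pakap rows were summed, and the sum was not tested by label. The MCD libraries alone gave 0 in both directions. Asking for a log2 fold change of at least 1 in size left 1 higher and 3 lower. Without both flox NC 3 and the library labelled cre MCD 3, chosen after seeing the data, 0 were higher and 3 lower (Mmp12, Pakap and Pdk4). With each library left out in turn, 0 to 5 were called higher and 1 to 12 lower. Without the library labelled cre MCD 3, 6 were called, 5 of them the same. The interaction called 66 with DESeq2, 0 with limma voom (916 at an unadjusted p under 0.05), 1 by label, 8 without both libraries, 0 with Pakap summed (1069 at an unadjusted p under 0.05), and 1 to 6 with each library left out. Across groups, deviations from group means correlated at 0.036 to 0.432 for libraries numbered 1 and at 0.095 to 0.517 for those numbered 3. For those numbered 2 the correlation was -0.043 to 0.029, and for unlike numbers -0.541 to 0.196. Whether the numbers mark pairs or a batch cannot be told from the labels. A replicate block called 1 higher and 3 lower, all among the 6, and 1 interaction. The difference in total counts was -8275703.5 without the library labelled cre MCD 3 (exact permutation p = 0.05).

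Some values that were not called changed sign. With only NC libraries Hmgcs1 was at -0.053, Ptpn6 at 0.080, Ero1lb at -0.52, Fasn at -0.85 and Eprs at -0.15. With each library left out in turn, Ptpn6 lay between -0.21 and 0.050, Phb2 between -0.20 and 0.056 and Fasn between -0.11 and 0.49, with the sign turned without cre MCD 2 for Ptpn6 and Fasn and without flox NC 3 for Phb2. Phb2 was at 0.0048 with the replicate block and at 0.10 without both libraries. Scd1 was at 0.20 by label, and the second Pakap row at -0.27 with only MCD libraries. The causes were not tested. With 2 deleted livers on MCD, changes of 2-fold in the interaction could seldom be detected.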
